A study of Mus musculus with 8 samples.

Results

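ExE ectoderm was described here from the cells of chimeric mouse embryos that carried this label in the authors' combined cell type annotation. It held 660 of the 28723 cells of the deposited table, of which 1 was an Eomes-KO cell (of 8566) and 659 were WT host cells (of 20157). Each cell was matched by the authors to its 15 nearest cells in a reference atlas of mouse gastrulation, and its label and atlas stage were taken over from these neighbours. ExE ectoderm is a trophoblast tissue that grows from the polar trophectoderm of the blastocyst and gives rise to the chorionic ectoderm and the ectoplacental cone, and so to much of the fetal placenta. Embryonic stem cells (ESC) injected into a blastocyst join the inner cell mass and mostly populate the epiblast and its descendants. Eomes, a T-box transcription factor, is known both for its role in mesoderm and definitive endoderm formation in the epiblast and for its requirement in trophoblast development.

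The Eomes-KO cells descended from tdTomato+ male ESC in which both alleles of Eomes had been inactivated by CRISPR-Cas9 targeting, with 4 independent clones used for 4 pools of embryos. The WT host cells were the tdTomato- cells of the same embryos, which came from WT C57BL/6 blastocysts of either sex. The embryos were collected at about E8.5, with several embryos in a pool, dissociated, sorted by tdTomato and sequenced with 10x Genomics 3' chemistry, which gave 4 Eomes-KO and 4 WT host libraries. Injected WT ESC were not analysed here, so loss of Eomes and origin from injected ESC cannot be told apart in any comparison between the genotypes. The library names of the table do not show the pool or clone, so each library is named below by its number of cells.

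The 4 Eomes-KO libraries held 602, 1153, 3346 and 3465 cells with 19370600 to 57481950 UMIs (unique molecular identifiers, which count RNA molecules), and the 4 WT host libraries held 2414, 3791, 5819 and 8133 cells with 20512404 to 66414390 UMIs. All cells of the table had at least 3163 UMIs and 1500 detected genes, and none had a doublet score above 0.5. A total of 80 cell barcodes occurred in 2 libraries, and 5 of these belonged to ExE ectoderm cells. None of the 5 partner cells, 2 Eomes-KO and 3 WT host, was itself labelled ExE ectoderm. WT host library 5819 stood apart from the other libraries in its number of ExE ectoderm cells, so results that rest on it are given with and without it.

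The table holds no gene counts, so the level of Elf5, Cdx2, Tfap2c and Rhox5, known markers of this tissue or of trophoblast more widely, was not analysed here and the label could not be checked against them. The combined annotation was built from the original and extended atlas annotations, which rest on the same neighbours, so their accord is a description and no check of the label. The same 660 cells were labelled ExE ectoderm in the original atlas annotation (37 labels in these cells), in the extended one (77 labels) and in the combined one (42 labels), and 0 cells carried the label in some but not all of them. No finer label divided them. The label score, which is the fraction of the 15 atlas neighbours that carry the label, was 1 in 651 of the 660 cells (98.6%), and it was equal in the original and extended annotations for all 660. Because the score comes from the neighbours that gave the label, it is given as a description of the label only.

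The label was carried by unanimous neighbours more often than most labels were. In WT host libraries 2414, 3791, 5819 and 8133 the score was 1 in 100%, 100%, 98.4% and 99.2% of ExE ectoderm cells, against 45.02%, 49.6%, 49.6% and 44.1% of the other cells. Over all WT host cells the share was 98.6% for ExE ectoderm (650 cells) and 46.7% for the rest. Among labels with at least 10 WT host cells ExE ectoderm was the 4th highest, after YS endothelium, YS mesothelium and parietal endoderm. The 9 ExE ectoderm cells with a score below 1, of which 3 were under 0.5 and the lowest was 0.267, lay in WT host libraries 5819 (8 cells) and 8133 (1 cell). Their median doublet score, a measure of likeness to a mixture of cells, was 0.36 (0.09 to 0.48), against 0.15 in the ExE ectoderm cells with a score of 1, and 8 of the 9 were matched to E8.0. The part of doublets in these low scores was not tested.

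The matched positions of most of the cells lay within 5 units of a common centre on the atlas map. These positions rest on the same match to atlas cells that gave the label, so they are a description and no check of the label. The spread of other labels on this map is not given here, so the distances have no baseline. The median distance of ExE ectoderm cells from their common centre on the atlas UMAP, a flattened map in arbitrary units, was 1.52 units, and 95% lay within 3.33 units. Within 5 units of this centre lay 120 of the 28063 cells with other labels, 119 of them parietal endoderm and 1 paraxial mesoderm. Parietal endoderm had 120 cells in all, so this region was not particular to ExE ectoderm. In contrast, 4 ExE ectoderm cells lay farther out, at 5.04, 11.9, 13.3 and 18.1 units, all in WT host library 5819, with label scores of 1, 0.4, 0.267 and 0.6. The 660 cells were nearest to 446 different atlas cells, and 352 of them (53.3%) had a nearest atlas cell that no other ExE ectoderm cell shared. The atlas cell matched most often took 23 cells, all from WT host library 5819. The 1 cell of another label with the same nearest atlas cell as an ExE ectoderm cell was labelled erythroid, with a label score of 0.6.

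Eomes-KO cells were almost absent from ExE ectoderm, whereas every WT host library contained it. Eomes-KO library 602 held 1 ExE ectoderm cell, a share of 0.166% of its cells (exact binomial 95% interval 0.00421% to 0.922%). Libraries 1153, 3346 and 3465 held 0, which allows shares of up to 0.260%, 0.0897% and 0.0866%, taken as 3 cells of each total. WT host libraries 2414 and 3791 held 15 and 24 cells, or 0.621% (0.348% to 1.02%) and 0.633% (0.406% to 0.941%). WT host library 8133 held 124 cells, or 1.52% (1.27% to 1.82%), and WT host library 5819 held 496 cells, or 8.52% (7.82% to 9.27%). All 4 Eomes-KO shares were below all 4 WT host shares. However, the interval of Eomes-KO library 602 reached above the shares of WT host libraries 2414 and 3791. A difference between that small library and either of these was not detectable with its number of cells. These intervals cover counting error only.

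**Figure D1:**
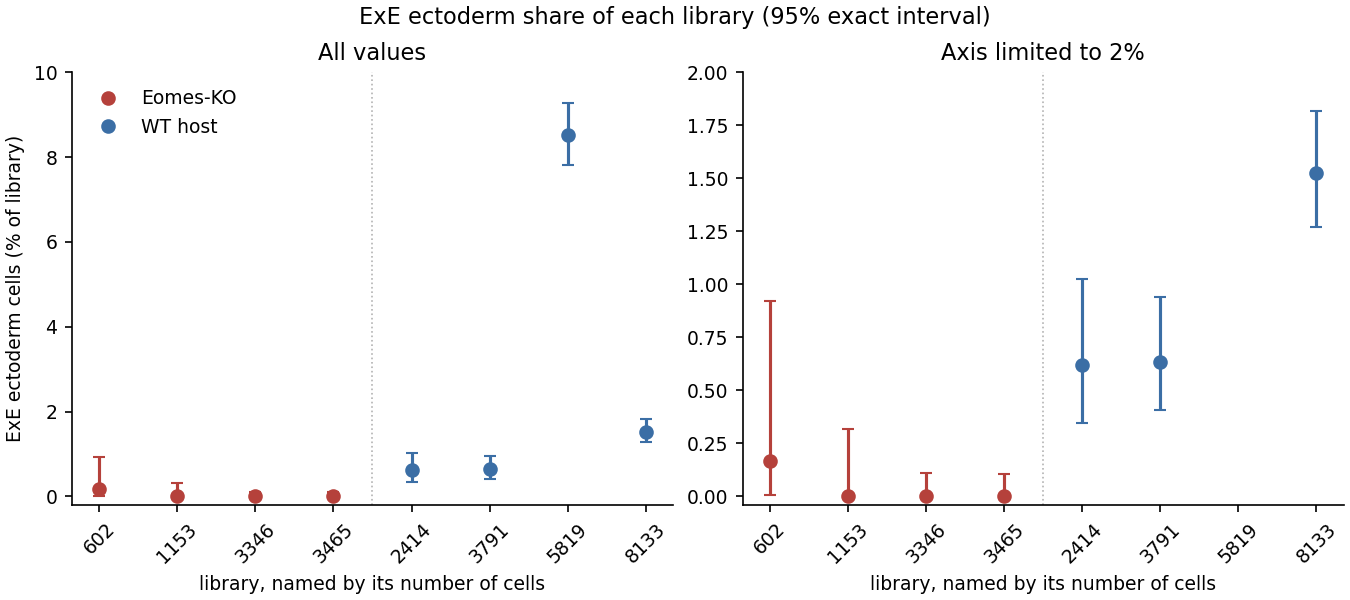
Share of ExE ectoderm cells in each library (y axis, % of the library's cells), with Eomes-KO libraries at the left and WT host libraries at the right of the dotted line; points are shares and bars are exact binomial 95% intervals. The right panel stops at 2%, which leaves out WT host library 5819 (8.52%), and shows 1 Eomes-KO library at 0.166%, 3 at 0 and the remaining WT host libraries at 0.621% to 1.52%.

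The share averaged 0.0415% ± 0.0831 in Eomes-KO libraries and 2.83% ± 3.82 in WT host libraries (SD, n = 4 each), a difference of -2.78 percentage points (exact two-sided permutation test, p = 0.029 over 70 arrangements, the smallest they can give). Without WT host library 5819 the WT host mean was 0.926% ± 0.518 (SD, n = 3) and the difference -0.885 points (exact permutation test, p = 0.029 over 35 arrangements). Without any single Eomes-KO library (602, 1153, 3346 or 3465) the shares still did not overlap, but the same exact permutation test of means gave p = 0.2, with differences of -2.83 to -2.77 points. Among cells with a doublet score under 0.25, Eomes-KO library 602 had 1 of 203 cells (0.493%) and WT host library 2414 had 8 of 1712 (0.467%), so the groups overlapped there, and the difference was -3.13 points (exact permutation test, p = 0.057). Among cells with at least 10000 UMIs, Eomes-KO libraries held 0 ExE ectoderm cells, and WT host libraries 2414, 3791, 5819 and 8133 held 6, 21, 440 and 3.

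Over all libraries 1 of 8566 Eomes-KO cells (0.0117%, exact 95% interval 0.000296% to 0.0650%) and 659 of 20157 WT host cells (3.27%, 3.03% to 3.52%) were ExE ectoderm. The pooled WT host share was 280.1 times the Eomes-KO share, with an exact counting interval of 50.1 to 11078. Without WT host library 5819, left out of this ratio once its values had been seen, the WT host share was 1.14% (163 of 14338, 0.970% to 1.32%), or 97.4 times the Eomes-KO share (17.2 to 3870). These ratios rest on a single Eomes-KO cell.

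A test across all cell types placed this difference among many. Of the 37 cell types with at least 10 cells, 26 differed between genotypes at an adjusted p of at most 0.05 by edgeR's quasi-likelihood test (70.3%), with 19 lower in Eomes-KO libraries (51.4%), 7 higher and 11 not called. ExE ectoderm was among the 19, with a log2 fold change of -7.44 (SE 1.43, back-calculated from the test statistic, edgeR adjusted p = 0.000428). With 1 Eomes-KO cell this fitted fold change depends on the model's prior count and sets no bound. When each library was left out in turn it was -9.84 to -5.85, with adjusted p no higher than 0.00441. The value of -9.84 came without Eomes-KO library 602, which left 0 Eomes-KO cells of this type. ExE ectoderm was also 1 of 18 types (48.6%) whose Eomes-KO shares were all below all WT host shares. Fewer cells of this type and a loss of such cells in the sort or the filters cannot be told apart from shares alone.

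The single Eomes-KO cell labelled ExE ectoderm was shallow for its library. It had 4760 UMIs, against a median of 32559.5 in Eomes-KO library 602, or 0.146 of that median, and only 9 of the 602 cells (1.50%) were at or below it. It had 1857 detected genes, against a library median of 5561.5. Its mitochondrial percent was 1.13, against 1.98, and its ribosomal percent was 27.12, against 25.84. Its doublet score was 0.04, against 0.29, its label score was 1, and its neighbours placed it at E7.75 with a stage score of 0.533. The UMI count was therefore low in its own library, where 28 cells (4.65%) had at most 10000 UMIs, and low among WT host ExE ectoderm cells too, where 16 of 659 were at or below it, 11 of them in WT host library 8133. The level of tdTomato RNA in this cell was not analysed here.

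Non-epiblast labels other than ExE ectoderm were given to 4 Eomes-KO cells. Library 1153 held a parietal endoderm cell with 7332 UMIs, a visceral endoderm cell with 11101 and an ExE endoderm cell with 20866, against a median of 19296 in that library. Library 3346 held an ExE endoderm cell with 43631 UMIs, against a median of 16995. The ExE ectoderm cell was thus the one farthest below its own library's median.

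In WT host libraries the number of ExE ectoderm cells was uneven. WT host library 5819 held 496 of the 659 cells (75.3%), and the other libraries together held 163. The highest WT host share was 13.7 times the lowest, and among the other libraries the highest was 2.45 times the lowest. By number of cells, ExE ectoderm was 2nd of the 37 labels present in library 5819, but 23rd of 35 in library 2414, 20th of 35 in library 3791 and 19th of 40 in library 8133. Over all WT host cells it was 12th.

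Although its share of all cells varied, ExE ectoderm made up a similar part of the non-epiblast cells in each WT host library. Non-epiblast cells here are those labelled ExE ectoderm, parietal endoderm, visceral endoderm or ExE endoderm. Parietal endoderm secretes Reichert's membrane, and visceral and ExE endoderm form the epithelium that surrounds the conceptus and lines the visceral yolk sac. ExE ectoderm was 15 of 19 non-epiblast cells in library 2414 (78.9%, exact 95% interval 54.4% to 93.9%), 24 of 33 in library 3791 (72.7%, 54.5% to 86.7%), 496 of 666 in library 5819 (74.5%, 71.0% to 77.7%) and 124 of 155 in library 8133 (80.0%, 72.8% to 86.0%). The mean was 76.5% ± 3.49 (SD, n = 4), and the intervals of all 4 libraries overlapped. Without library 5819 it was 77.2% ± 3.93 (SD, n = 3).

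The remainder differed in kind. Parietal endoderm had 0, 2, 114 and 3 cells in WT host libraries 2414, 3791, 5819 and 8133, so 114 of its 119 cells (95.8%) came from library 5819. Visceral endoderm had 4, 5, 27 and 14 cells, and ExE endoderm had 0, 2, 29 and 14, in the same libraries. Library 5819 therefore had the highest count of each non-epiblast label, although library 8133 had more cells.

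**Figure D2:**
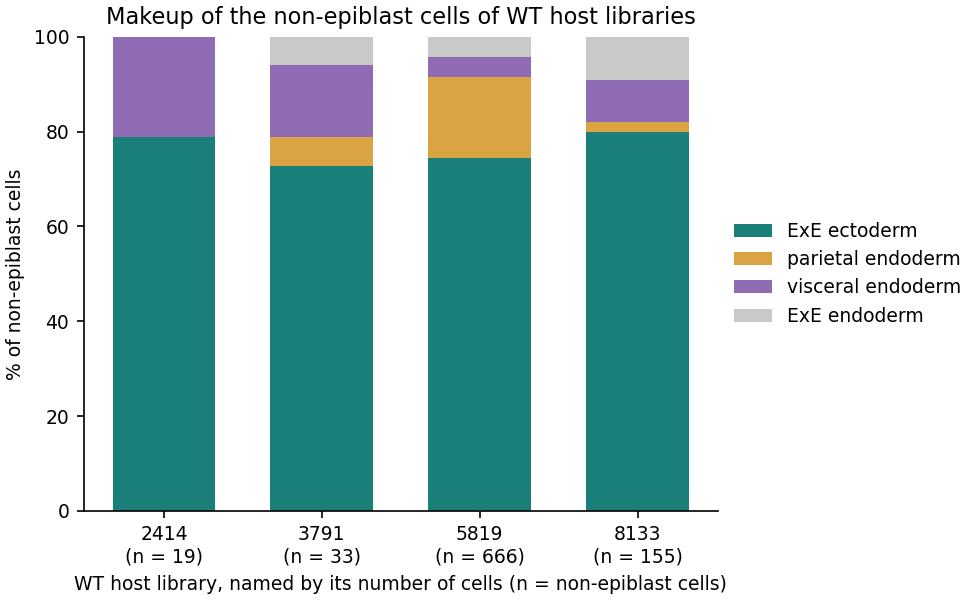
Makeup of the non-epiblast cells of each WT host library (y axis, % of the library's non-epiblast cells), with the library's total number of cells and its number of non-epiblast cells (n) on the x axis. ExE ectoderm, the lowest block, took 72.7% to 80.0% in all 4 libraries, and parietal endoderm formed a wide block in library 5819 only.

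ExE ectoderm cells of WT host libraries held more RNA and more genes than the other cells of their library, in 4 of 4 libraries. The median was 9083 UMIs in ExE ectoderm and 8346 in other cells of library 2414, 12491.5 and 10727 in library 3791, 15638.5 and 10728 in library 5819, and 6525.5 and 5104 in library 8133. The gap was narrowest in library 2414, where the quartiles of ExE ectoderm (7941 to 11687 UMIs) overlapped those of the other cells (6456 to 10238), and widest in library 5819. The mean log2 ratio of medians was 0.31 ± 0.18 (SD, n = 4), or 1.24-fold (exact two-sided sign flips over libraries, p = 0.13, the smallest that 4 libraries can give, and 0.2 after Benjamini-Hochberg adjustment over 8 measures, among which were the label scores of the original and extended annotations, also at 0.2). Without library 5819 it was 0.23 on the log2 scale.

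Detected genes followed the same order. ExE ectoderm had a median of 2925 genes against 2646 in other cells of library 2414, 3403.5 against 3014 in library 3791, 3827 against 3127 in library 5819 and 2384.5 against 2015 in library 8133. The mean log2 ratio was 0.21 ± 0.066 (SD, n = 4), or 1.16-fold (exact sign flips, p = 0.13, adjusted 0.2). Among the cell types with at least 10 cells, ExE ectoderm had the highest median number of genes in libraries 3791, 5819 and 8133 (of 25, 33 and 31 types) and the 2nd highest of 25 types in library 2414, after caudal mesoderm. By median UMIs it was 5th, 3rd, 1st and 1st in libraries 2414, 3791, 5819 and 8133.

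A difference in genes was also present between cells of broadly like depth. Within bins of UMIs, with 10 bins per 10-fold and weighted by the ExE ectoderm cells in each, ExE ectoderm cells had on average 219, 208, 208 and 121 more genes than the other cells in libraries 2414, 3791, 5819 and 8133. The mean was 189 ± 45.6 genes (SD, n = 4; higher in 4 of 4 libraries, exact sign flips, p = 0.13), or 5.27% to 7.93% of the genes in the other cells. With 4 bins per 10-fold the mean was 244 genes. Gene counts were not analysed here, so the cells could not be thinned to equal numbers of UMIs, and depth can still differ within a bin. The other cells included erythroid cells, and the comparison within bins was not run without them. Against epiblast-derived cells without erythroid cells, the mean log2 ratio of medians was 0.38 for UMIs and 0.20 for genes.

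**Figure D3:**
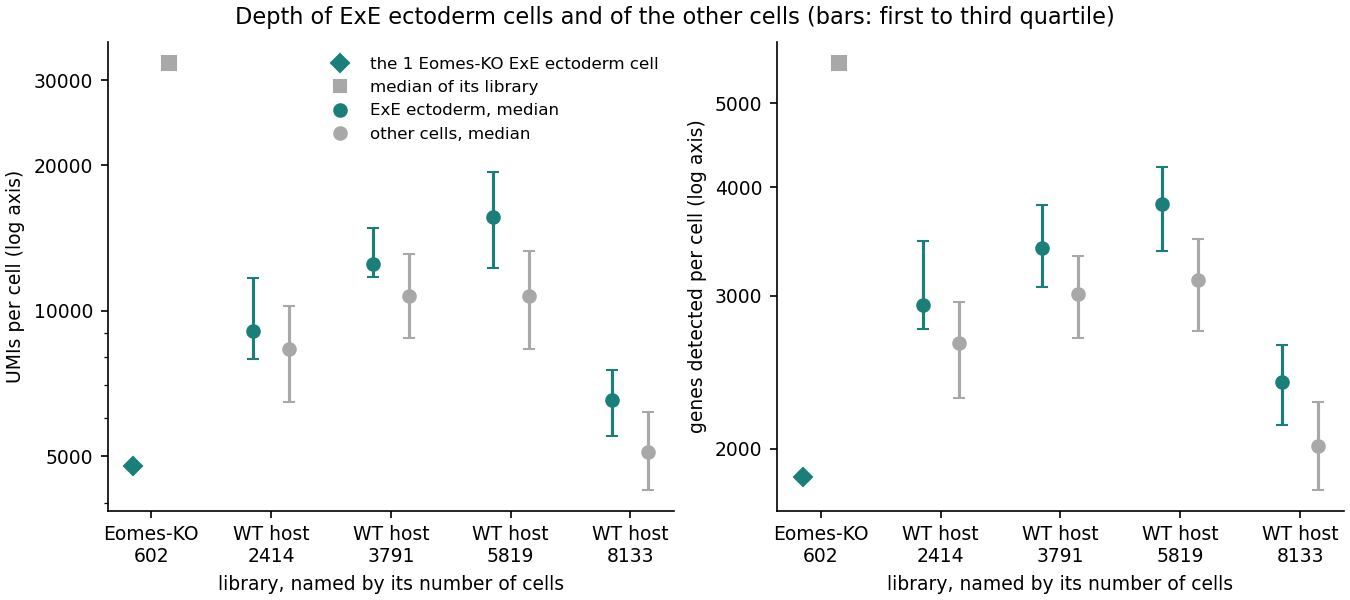
UMIs per cell (left) and genes detected per cell (right), both on a log axis, by library. Circles are medians and bars run between the quartiles of ExE ectoderm cells (green, left) and other cells (grey, right) of each WT host library, and the diamond and the square are the single Eomes-KO ExE ectoderm cell (4760 UMIs, 1857 genes) and the median of its library (32559.5 UMIs, 5561.5 genes). In each WT host library the ExE ectoderm median lies above the other cells' median.

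The mitochondrial percent, the share of a cell's UMIs from mitochondrial genes, was also higher in ExE ectoderm in 4 of 4 libraries. Medians were 1.94% in ExE ectoderm and 1.61% in other cells of library 2414, 1.63% and 1.41% in library 3791, 2.14% and 1.93% in library 5819, and 2.25% and 1.77% in library 8133. The mean difference was 0.308 points ± 0.12 (SD, n = 4; exact sign flips, p = 0.13, adjusted 0.2). The ribosomal percent was lower in 3 of 4 libraries, with medians of 24.13% and 26.08%, 26.51% and 27.04%, 25.24% and 25.22%, and 24.58% and 24.97% in ExE ectoderm and other cells of libraries 2414, 3791, 5819 and 8133. Its mean difference of -0.713 points ± 0.857 (SD, n = 4; exact sign flips, p = 0.25) was smaller than the spread between libraries. It was -0.957 points without library 5819 and -0.300 points without library 2414.

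The doublet score did not move one way. Its median was 0.24, 0.22 and 0.195 in ExE ectoderm of libraries 2414, 3791 and 8133, against 0.17 in the other cells of each, but it was 0.14 against 0.19 in library 5819. The mean difference was 0.024 ± 0.053 (SD, n = 4; exact sign flips, p = 0.5). Without library 5819 it was 0.048 and higher in 3 of 3 libraries, and without library 2414 it was 0.0083. Within ExE ectoderm the score followed depth, with a Spearman correlation with UMIs of 0.72 over 496 cells of library 5819 and 0.67 over 124 cells of library 8133, against 0.44 and 0.35 over the other cells of those libraries. UMIs and genes correlated at 0.97 and 0.94 in ExE ectoderm, and mitochondrial and ribosomal percent at -0.34 and -0.21. These are descriptions over cells that share a library, and cells are not independent replicates.

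Set against the other non-epiblast cells, ExE ectoderm had more UMIs, a higher ribosomal percent and a lower mitochondrial percent in both libraries compared. At least 10 cells of each, the minimum set here, were present only in libraries 5819 and 8133. With at least 5 cells of each, 3 libraries were compared and the directions were the same. The mean differences were then 1.03 for UMIs (log2 ratio), 4.05 points for ribosomal percent and -0.515 points for mitochondrial percent. The medians were 15638.5 UMIs in ExE ectoderm and 7448.5 in the other non-epiblast cells of library 5819, and 6525.5 and 4705 in library 8133, a mean log2 ratio of 0.77. The mitochondrial percent was lower in ExE ectoderm here, at 2.14% and 2.48% in library 5819 and 2.25% and 2.84% in library 8133. The ribosomal percent was higher, at 25.24% and 21.4% in library 5819 and 24.58% and 21.2% in library 8133. The labels differed in this, as visceral endoderm had 21.95% in library 5819 but 24.0% in library 8133. ExE endoderm had 20.25% and 19.83% in these libraries. With 2 libraries the exact sign flips cannot go below p = 0.5, which is what each of these measures gave.

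By single label, the 114 parietal endoderm cells of library 5819 had a median of 7714 UMIs, its 27 visceral endoderm cells 6034 and its 29 ExE endoderm cells 8030, all under the ExE ectoderm median of 15638.5. Visceral endoderm had the highest mitochondrial percent of the non-epiblast labels in this library (4.03%). In library 8133, 14 visceral and 14 ExE endoderm cells had medians of 4216 and 4894.5 UMIs, also under the 6525.5 of ExE ectoderm. Visceral endoderm again had the highest mitochondrial percent there (2.945%, against 2.87% in 3 parietal endoderm cells). The parietal endoderm medians rest on library 5819, with too few cells elsewhere for a check.

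The atlas neighbours of ExE ectoderm cells were younger than those of the other cells in every WT host library. Of the 659 WT host cells, 61 were matched to E7.5 (9.26%), 440 to E7.75 (66.8%), 129 to E8.0 (19.6%), 29 to E8.25 (4.40%) and 0 to E8.5. E7.5 and E7.75 together took 80.0% of ExE ectoderm and 11.2% of other cells in library 2414, 58.3% and 3.98% in library 3791, 78.2% and 12.9% in library 5819, and 70.2% and 8.42% in library 8133. The lowest share in ExE ectoderm was thus above the highest in other cells. The means were 71.7% ± 9.87 in ExE ectoderm and 9.12% ± 3.90 in other cells (SD, n = 4), a difference of 62.6 points (higher in 4 of 4 libraries, exact sign flips, p = 0.13, the smallest possible), and 60.5 to 65.3 points when each library was left out.

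The later stages were correspondingly thin. E8.25 took 0%, 16.7%, 3.83% and 4.84% of ExE ectoderm, against 48.0%, 47.3%, 37.4% and 37.7% of other cells, in libraries 2414, 3791, 5819 and 8133. E8.5 took 0 cells of ExE ectoderm in each library, against 19.7% to 38.6% of other cells. A count of 0, taken as 3 cells, allows up to 20%, 12.5%, 0.605% and 2.42% in libraries 2414, 3791, 5819 and 8133. In library 2414 this bound lies above the share in its other cells (19.7%). For E8.0 the direction differed between libraries, with 20%, 25%, 17.9% and 25% of ExE ectoderm and 21.1%, 10.1%, 27.9% and 23.8% of other cells. Its mean difference of 1.26 points ± 10.3 (SD, n = 4; exact sign flips, p = 0.75) was well within the spread between libraries.

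**Figure D4:**
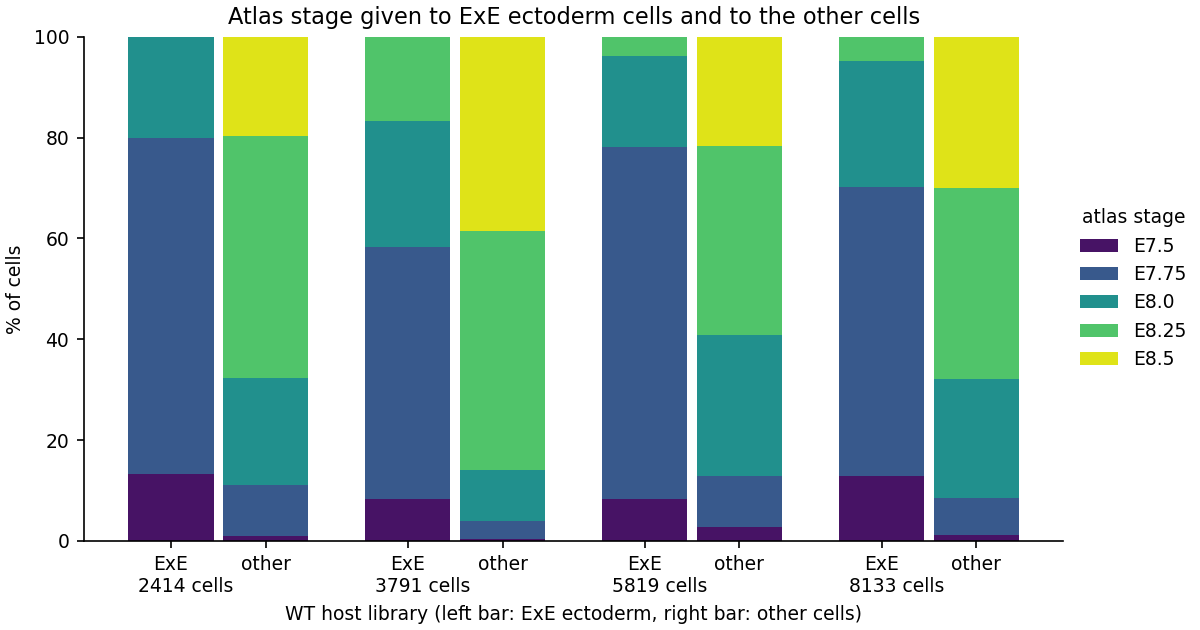
Atlas stage of the cells in each WT host library (y axis, % of cells), with ExE ectoderm at the left and the other cells at the right of each pair of bars. E7.5 and E7.75 fill 58.3% to 80.0% of the ExE ectoderm bars and 3.98% to 12.9% of the others, and no ExE ectoderm bar contains E8.5.

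The stage label comes from the same neighbours as the cell type label, and only atlas cells of E7.5 to E8.5 were used for the match. It can therefore name only stages in this range at which the atlas holds ExE ectoderm cells, and how many it holds at each stage was not analysed here. Other non-epiblast labels also had early matches. Parietal endoderm had 118 of 119 WT host cells at E7.5, visceral endoderm had 25 of 50 at E7.75, and ExE endoderm had 23 of 45 at E7.75. Unlike ExE ectoderm, visceral endoderm (2 cells) and ExE endoderm (7 cells) each had some cells at E8.5.

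The neighbours gave ExE ectoderm cells a stage less unanimously than they gave the cell type. The median stage score, the fraction of neighbours with the transferred stage, was 0.667, 0.467, 0.533 and 0.467 in ExE ectoderm of libraries 2414, 3791, 5819 and 8133, against 0.6, 0.667, 0.6 and 0.6 in other cells (lower in 3 of 4 libraries, exact sign flips, p = 0.375). Depth and mitochondrial percent by stage are given for the libraries with at least 10 ExE ectoderm cells at more than one stage. In library 5819 the median was 15035 UMIs in 41 cells at E7.5, 16178 in 347 at E7.75, 14490 in 89 at E8.0 and 14725 in 19 at E8.25, and the median mitochondrial percent was 2.09%, 2.14%, 2.17% and 2.10%. In library 8133 the median was 6692 UMIs in 16 cells at E7.5, 6407 in 71 at E7.75 and 6675 in 31 at E8.0, and the median mitochondrial percent was 2.38%, 2.16% and 2.25%. Neither measure followed the same order of stages in both libraries, and no test was run between stages.

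The nearest atlas cells of the libraries overlapped in part. The same overlap was not worked out for other cell types, so it has no baseline here. Over all libraries, 53.3% of ExE ectoderm cells had a nearest atlas cell that no other ExE ectoderm cell shared. ExE ectoderm cells of libraries 2414, 3791, 5819 and 8133 were nearest to 15, 23, 323 and 114 different atlas cells. Library 2414 shared 0 of these with library 5819. Library 3791 shared 8, which was 34.8% of its own and 2.48% of those of library 5819, and library 8133 shared 20, which was 17.5% of its own and 6.19% of those of library 5819.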

How the data were processed

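Single-cell libraries of sorted Eomes-KO and WT host cells (4 each) were analysed from 1 table of cells. Per the submitters' notes and the methods, reads were counted by the authors in Cell Ranger 6.0.1 (mm10 plus tdTomato). The deposited table gives each cell's summed UMI counts, not normalized. The deposited mitochondrial and ribosomal percent are shares of those counts, and the deposited doublet, label and stage scores are the authors' own. The table holds fewer cells than the study's text states. A library's genotype was read from the tdTomato status of its cells. ExE ectoderm, the lists and the comparisons were chosen with earlier results of these data known, and no gene was named by rule since the table holds none. Cell types outside the non-epiblast labels were named after their values were seen.

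Cells per type were tested with edgeR 4.0.16 (quasi-likelihood, genotype only, types with at least 10 cells, Benjamini-Hochberg adjustment). The fit was also run on simulated counts with the same spread for every type. That run did not cover a type as uneven between libraries as ExE ectoderm. DESeq2 1.42.0 was an alternative. Shares were compared by exact permutation over libraries, and ExE ectoderm with other cells by exact sign flips of differences within WT host libraries. Binomial intervals are Clopper-Pearson at 95% and leave out all but counting error. A pool of embryos gave a library of each genotype, but the libraries could not be paired, and p-values measure the spread between these libraries. No doublet caller was run. Other label sets, score, UMI and doublet filters, denominators, scalings and left-out libraries were tried.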

Additional observations from a re-analysis of the deposited data

Results flagged for a closer look

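Of 26 sets of 4 library values, 4 had a library far from the other 3. Chance does this in about 1 in 20 sets of independent, normally distributed values. These sets share libraries and cells, so that rate is no yardstick for the 4. For the Eomes-KO share and the extended label score the other 3 values were tied, so any departure would have been flagged. The ExE ectoderm share of 8.52% in WT host library 5819 was far above the other WT host shares. The share of 0.166% in Eomes-KO library 602 was the only one above 0 among Eomes-KO libraries and rests on 1 cell. The excess of genes at like UMIs was lowest in WT host library 8133, at 121 genes, the library with the lowest median depth. The median extended label score exceeded that of other cells by 0.2 in WT host library 8133, where the other cells scored lower than in the remaining libraries.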

How the results depend on the processing

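No paired analysis was possible because the library names do not show the embryo pool or clone. The Eomes-KO deficit kept its direction under every alternative run. It was called in all fits across cell types. With all libraries, the edgeR log2 fold changes ran from -9.17 (cells with at least 10000 UMIs) to -6.90 (doublet score under 0.25). The fit at -9.17 had 0 Eomes-KO ExE ectoderm cells. DESeq2 gave -8.16 (ratio factors) and -6.39 (poscounts factors). The difference of mean shares lost its call with doublet scores under 0.25 (-3.13 points, exact permutation p = 0.057) and without any 1 Eomes-KO library, over a range of -3.52 to -0.885 points when each library was left out. With extended labels, 50 of 72 types were called, against 26 of 37. The doublet score difference turned to -0.00625 (0.024 before) against epiblast-derived cells without erythroid cells. The E8.0 difference turned to -0.846 points (1.26 before) against those cells, and ran from -3.28 to 5.002 points when each library was left out. The cause was not tested. The other 205 values were rated as unchanged. For values with a test this means the same direction and side of the threshold, which comparisons within WT host libraries could not cross. For numbers of types called and shares without a test, it means a value near the main one. For the ratio, 97.4 without WT host library 5819 against 280.1, it means a value inside the main counting interval of 50.1 to 11078. Some values could not change, because the library left out had not been used in them. The number of cells per library sets the largest share that a count of 0 leaves possible.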
